A study of Homo sapiens with 4 samples.

Results

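The enzymes that take ubiquitin off histone H2B were examined in A549, a human lung adenocarcinoma cell line, with and without an H2B that cannot carry that ubiquitin. The set held 10 genes, chosen by name: the 4 subunits of the deubiquitylase module of the SAGA coactivator (USP22, ATXN7L3, ENY2 and ATXN7), the USP22 paralogs USP27X and USP51, and the further deubiquitylases USP44, USP49, USP7 and USP3. Of the 17687 genes named on the array, 9 belonged to this set. No probe set was annotated with ATXN7L3 alone in the annotation used here, so that subunit was not analysed here.

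Total RNA was profiled on 4 Affymetrix whole-transcript arrays. All 4 came from cells in which a short hairpin targeted LDOC1, a small leucine zipper protein, and all cultures were kept in puromycin. In the A549-shLDOC1-H2BK120R group (2 arrays) the cells also expressed H2BK120R, in which the lysine that accepts monoubiquitin is replaced by arginine. In the A549-shLDOC1-V group (2 arrays) they carried the corresponding vector. The submitters state that the hairpin raised monoubiquitylated H2B (H2Bub1) and that the mutant lowered it. The arrays did not measure the mark. No array came from cells with an added unmutated H2B or with intact LDOC1, so an effect of the mutation cannot be told apart from one of added histone. The sources used here do not give the promoters of the constructs or say whether a line was 1 clone. The labels do not say that replicates were separate cultures, so p-values cover only the spread among the arrays, and that spread may be technical.

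H2Bub1 is laid down on transcribed genes and is removed during each round of transcription. In SAGA, the catalytic subunit USP22 is nearly inactive alone and is activated by the zinc finger protein ATXN7L3 together with ENY2, while ATXN7 anchors the module to the rest of the complex. USP27X and USP51 can take the place of USP22 on ATXN7L3 and ENY2, outside SAGA, so the 3 enzymes compete for the same activators. USP44, USP49, USP7 and USP3 act on H2B without this module and have other substrates too.

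None of the 9 measured genes passed the test for a difference between the groups. In limma, with p-values adjusted by Benjamini-Hochberg and a threshold of 0.05, 0 of 9 passed, against 0.00% of all 21448 probe sets. At an unadjusted p under 0.05 the count was also 0 of 9, against 6.70% of all probe sets, 3.62% higher and 3.08% lower with H2BK120R. The smallest adjusted p among the 9 was 0.795, that of ATXN7. The levels of the H2BK120R cells were above those of the vector cells for 4 genes (ATXN7, USP44, USP7 and USP3), against 49.9% of all probe sets. They were below for 5 (USP22, ENY2, USP49, USP27X and USP51), against 49.4%. The median difference of the 9 was -0.02 on the log2 scale, and that of all probe sets was 0.00 at this precision. Missing the threshold does not show that the levels were equal. The confidence intervals given below cover only the spread among these arrays, and their widths depend on the fit. With 2 arrays in each group the smallest p that an exact two-sided permutation test of 1 gene allows is 0.333. A bulk array also cannot tell a change in RNA per cell from a change in the share of cells that make it.

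**Figure D1:**
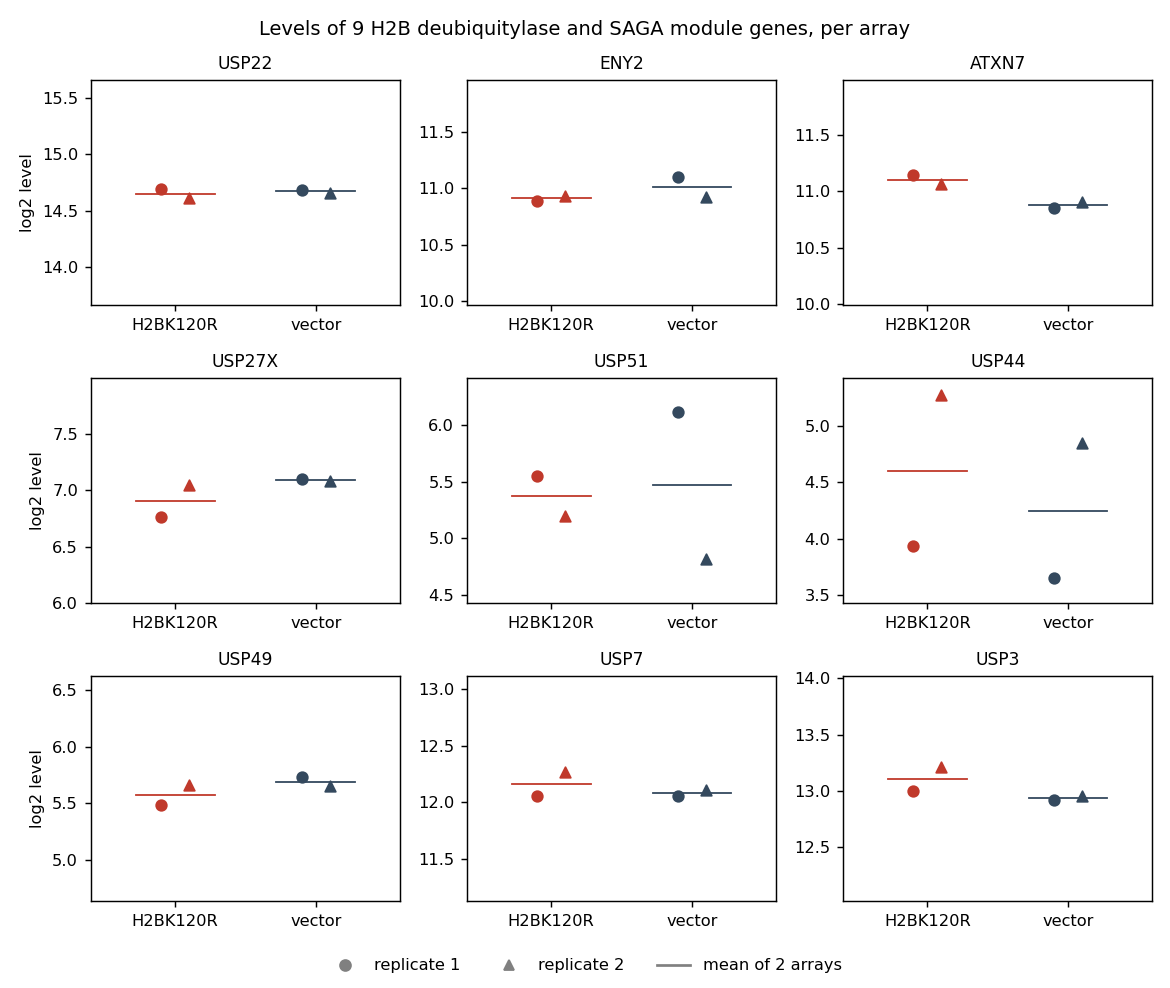
Log2 level of each measured gene on each of the 4 arrays, with H2BK120R on the left and vector on the right of every panel. Circles are replicate 1, triangles replicate 2 and bars the mean of 2 arrays, and each panel spans 2 log2 units. The arrays of USP44 and USP51 are far apart within a group, while those of USP22 lie within 0.08 of each other.

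USP22, the catalytic subunit, had the smallest standard error of the set. Its log2 level was 14.69 and 14.61 in the 2 H2BK120R arrays, against 14.68 and 14.66 in the 2 vector arrays. The 4 arrays overlapped and spanned 0.08. The difference between the groups was -0.02 ± 0.11 (limma SE, n = 2 each), with an adjusted p of 0.979. Its 95% confidence interval ran from -0.25 to 0.21, which corresponds to 0.840 to 1.16 times the vector level. The standard error was 0.19 in a fit without the mean-variance trend. The sign turned to 0.02 without H2BK120R replicate 2.

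The other measured subunits of the module were ENY2, a small protein that binds ATXN7L3, and ATXN7, in which an expanded glutamine tract causes a spinocerebellar ataxia. ENY2 was at 10.89 and 10.93 in the H2BK120R arrays and at 11.10 and 10.92 in the vector arrays. One vector array was high and the other lay among the H2BK120R arrays, so the groups overlapped. The difference was -0.10 ± 0.15 (limma SE, adjusted p = 0.917), and it was -0.01 without vector replicate 1 and -0.19 without vector replicate 2. ATXN7 was at 11.14 and 11.06 in the H2BK120R arrays, against 10.85 and 10.90 in the vector arrays. Both H2BK120R arrays lay above both vector arrays, and ATXN7 was the 1 gene of the 9 whose difference between the groups was larger than the wider of the gaps between 2 arrays of a group. Of all probe sets, 24.3% met that condition. The difference of ATXN7 was 0.225 ± 0.15 (limma SE, n = 2 each), or 16.9% higher, with a limma adjusted p of 0.795 and an interval of -0.11 to 0.56. It stayed between 0.185 and 0.265 when any 1 array was left out.

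The groups did not overlap for 3 of the 9 genes, ATXN7 and USP3 higher and USP27X lower in the H2BK120R arrays. This is 33.3% of the measured genes, against 36.5% of all probe sets, of which 18.6% were higher and 17.9% lower. Scaling moved this count, to 4 of 9 after quantile normalization, where ENY2 joined, and to 5 of 9 (55.6%) with equal array medians, where ENY2 and USP49 joined. The share of all probe sets was 37.2% and 36.6% under these scalings.

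The USP22 paralogs are encoded on the X chromosome. USP27X was at 6.76 and 7.05 in the H2BK120R arrays, against 7.10 and 7.08 in the vector arrays. The vector arrays agreed to 0.02, and the H2BK120R arrays lay below them but differed from each other by 0.29. The difference of -0.185 ± 0.26 (limma SE, adjusted p = 0.904) rested mostly on H2BK120R replicate 1, without which it was -0.04, and it was -0.33 without H2BK120R replicate 2. USP51 was at 5.55 and 5.20 in the H2BK120R arrays, against 6.12 and 4.82 in the vector arrays. Both H2BK120R values lay between the vector values, which were 1.3 apart. The difference was -0.095 ± 0.41 (limma SE, adjusted p = 0.973), with an interval from -0.997 to 0.807. Removing vector replicate 1 turned it to 0.555 and removing H2BK120R replicate 2 turned it to 0.08. With vector replicate 2 removed it was -0.745, and with H2BK120R replicate 1 removed it was -0.27. The interval corresponds to 0.501 to 1.75 times the vector level, so it does not exclude a change of USP51 by 1.5-fold in either direction.

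**Figure D2:**
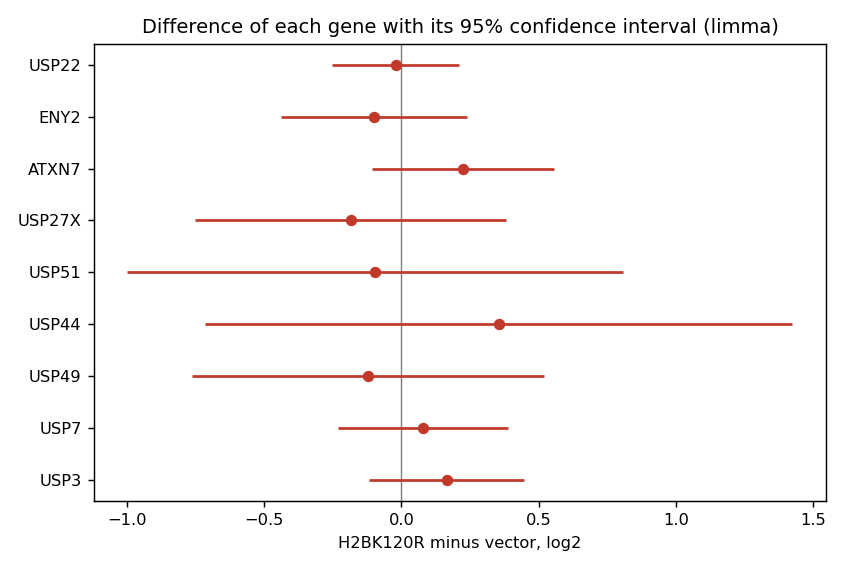
Difference in log2 level, H2BK120R minus vector, for the 9 measured genes with the limma 95% confidence interval as a horizontal line. Every interval crosses 0, and they reach from 0.23 to either side for USP22 to 1.07 to either side for USP44.

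USP44 and USP49 are related enzymes. USP44 guards the spindle checkpoint and acts on H2B with the N-CoR repressor, and USP49 has been linked to co-transcriptional splicing through H2B. USP44 was at 3.94 and 5.27 in the H2BK120R arrays, against 3.65 and 4.85 in the vector arrays. In each group replicate 2 was more than 1 log2 unit above replicate 1, so the spread within groups was wider than the difference between them. That difference, 0.355 ± 0.49 (limma SE, adjusted p = 0.903), was the largest of the 9 in size and, in this fit, the least certain. Its interval ran from -0.71 to 1.42. In a fit with the replicate number as a block, its standard error was 0.28 (limma adjusted p = 0.739), and that of USP51 was 0.32. The labels do not say that a number marks a shared culture. Removing H2BK120R replicate 2 turned the difference of USP44 to -0.31 and removing vector replicate 1 turned it to -0.245. With H2BK120R replicate 1 removed it was 1.02, and with vector replicate 2 removed it was 0.955. Each removal left the replicate numbers unequal between the groups. USP49 was at 5.48 and 5.66 in the H2BK120R arrays, against 5.73 and 5.65 in the vector arrays. The arrays overlapped, and the difference of -0.12 ± 0.29 (limma SE, adjusted p = 0.949) was smaller than the gap of 0.18 between the H2BK120R arrays. Removing H2BK120R replicate 1 gave -0.03 and removing H2BK120R replicate 2 gave -0.21.

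USP7 stabilises MDM2 and p53 among many proteins and, in flies, acts on H2B with GMP synthetase. USP3 removes ubiquitin from both H2A and H2B. USP7 was at 12.05 and 12.27 in the H2BK120R arrays, against 12.05 and 12.11 in the vector arrays. The lower array of each group had the same value. The difference of 0.08 ± 0.14 (limma SE, adjusted p = 0.929) turned to -0.03 without H2BK120R replicate 2. USP3 was at 13.00 and 13.21 in the H2BK120R arrays, against 12.92 and 12.96 in the vector arrays. The groups did not overlap, but the H2BK120R arrays were 0.21 apart and the difference was 0.165 ± 0.13 (limma SE, adjusted p = 0.826). Removing H2BK120R replicate 1 gave 0.27 and removing H2BK120R replicate 2 gave 0.06. The intervals ran from 0.853 to 1.31 times the vector level for USP7 and from 0.921 to 1.36 times for USP3.

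**Figure D3:**
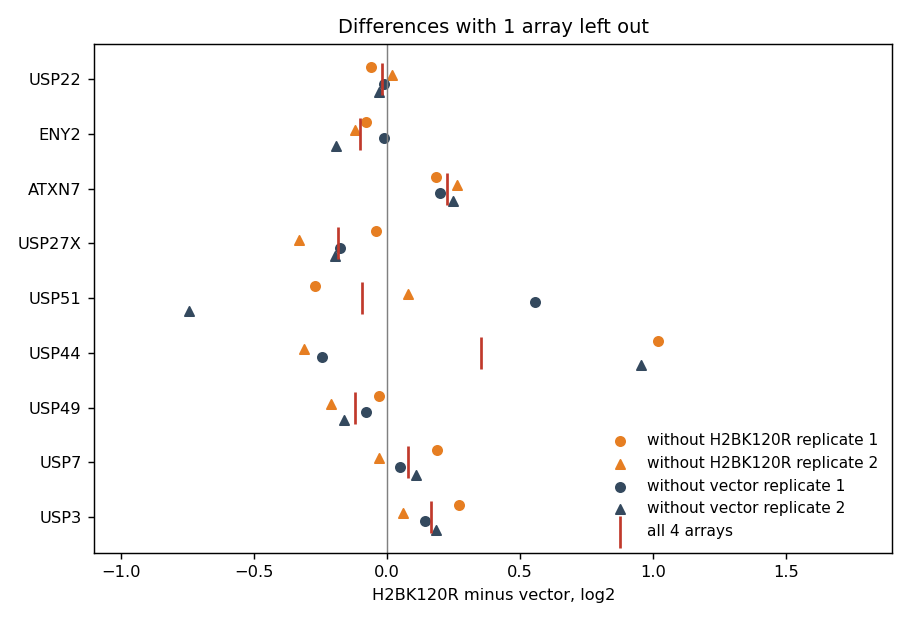
Difference in log2 level, H2BK120R minus vector, with all 4 arrays (vertical ticks) and with 1 array left out (points, by the array removed). The sign changes for USP22, USP7, USP44 and USP51, and the points of ATXN7 stay between 0.185 and 0.265.

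The standard errors of the 9 genes came from a fit that draws each variance towards a curve in level, so their order partly repeats the order of the signal. USP22, USP3, USP7, ATXN7 and ENY2 gave standard errors from 0.11 to 0.15, and USP27X, USP49, USP51 and USP44 from 0.26 to 0.49. Without the trend, USP44 (0.55) and USP51 (0.43) still stood apart, while the other 7 genes lay between 0.186 and 0.203 whatever their brightness. With the trend, the median over all probe sets was 0.28, or 0.19 for those at or above the median level of 6.41 and 0.31 for the dimmer ones. USP44, USP49 and USP51 lay below that median, at percentiles 29.0, 43.4 and 41.3 of the 21448 probe sets, and the other 6 at percentiles from 54.7 (USP27X) to 98.2 (USP22). A probe set's brightness depends on its probes as well as on the RNA, and no detection calls were given, so these positions describe the signal and do not rank the genes by transcript number. Whether USP44, USP49 and USP51 were above background was not tested.

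**Figure D4:**
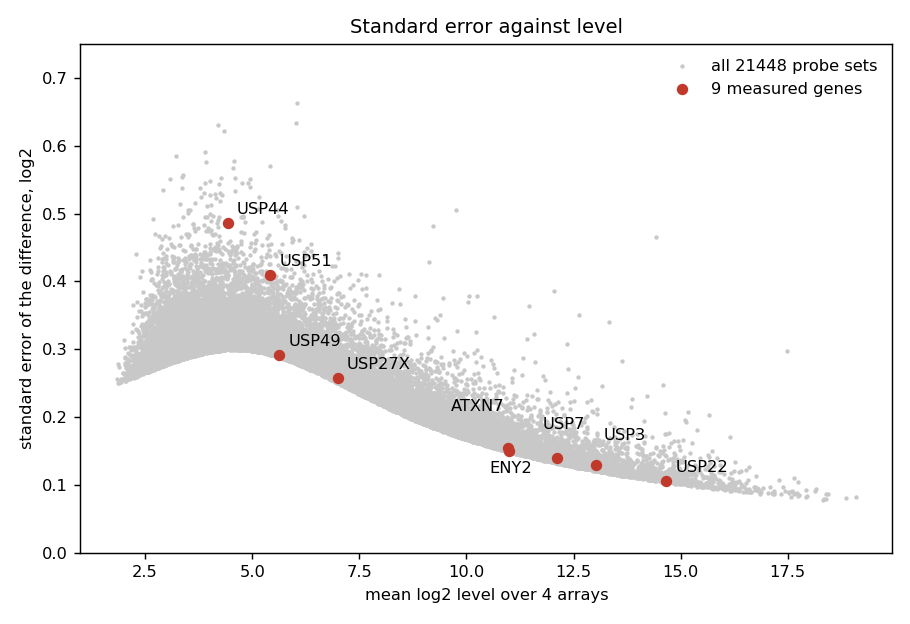
Standard error of the difference (log2) against the mean log2 level over 4 arrays, for all 21448 probe sets in grey and the 9 measured genes in red. The errors come from the fit with a mean-variance trend, which gives dim probe sets larger ones. USP44 (0.49) and USP51 (0.41) lie well above the lower edge of the cloud, and the other 7 genes lie near it.

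The partners of these enzymes were described from lists of pathway genes. In every list 0 members passed the adjusted threshold. The ATXN7 relatives were ATXN7L1, ATXN7L2 and ATXN7L3B, the last of which encodes a protein that binds ENY2 in the cytoplasm. ATXN7L3B was at 10.83 and 10.85 in the H2BK120R arrays and at 10.86 and 10.78 in the vector arrays, a difference of 0.02 ± 0.15 (limma SE). ATXN7L1 was at 7.41 and 7.87 in the H2BK120R arrays and at 6.6 and 7.36 in the vector arrays. Its groups did not overlap, with a difference of 0.66 ± 0.31 (limma adjusted p = 0.745) that was 0.28 without vector replicate 1 and 1.04 without vector replicate 2. ATXN7L2 differed by -0.275 ± 0.33 and turned to 0.09 without vector replicate 1.

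Elsewhere in SAGA, 5 of 5 listed genes of the acetyltransferase module were measured, with 2 higher, 3 lower and a median difference of -0.11. KAT2B, an alternative to KAT2A as the catalytic subunit, differed by 0.385 ± 0.19, TADA3 by -0.18 ± 0.25 and TADA2B by -0.12 ± 0.21. TADA3 turned to 0.085 without H2BK120R replicate 1 and TADA2B to 0.065 without vector replicate 2. Of 13 listed genes of the core and remaining modules 12 were measured, with 5 higher, 7 lower and a median of -0.05. SUPT3H, a histone-fold subunit of the core, was at 6.31 and 6.79 in the H2BK120R arrays and at 7.43 and 7.13 in the vector arrays. Both H2BK120R arrays lay below both vector arrays, and SUPT3H was the 1 gene of the 12 at an unadjusted p under 0.05, against 6.70% of all probe sets (difference -0.73 ± 0.28, limma adjusted p = 0.745). It no longer was without H2BK120R replicate 1, where the difference was -0.49, or without vector replicate 1, where it was -0.58. TRRAP, the large scaffold to which activators bind, differed by 0.43 ± 0.23 and TAF10 by 0.245 ± 0.16. Leaving out vector replicate 2 brought TRRAP to 0.26 and KAT2B to 0.22, and leaving out H2BK120R replicate 2 brought TAF10 to 0.075. In TREX-2, the mRNA export complex that also contains ENY2, all 5 listed genes were measured, 2 of them higher, and the median difference was -0.105. PCID2, CETN3 and CETN2 differed by -0.315 ± 0.23, 0.345 ± 0.27 and -0.135 ± 0.15. With 1 array left out PCID2 ranged from -0.595 (vector replicate 2) to -0.035 (vector replicate 1), CETN3 from 0.055 to 0.635 (H2BK120R replicates 2 and 1) and CETN2 from -0.205 to -0.065 (vector replicates 1 and 2).

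Of 7 listed partners and substrates of USP7, 6 were measured, 3 higher and 3 lower, with a median of -0.03. MDM4, an inhibitor of p53 that USP7 protects from degradation, was at 12.87 and 12.90 in the H2BK120R arrays and at 12.45 and 12.53 in the vector arrays. The groups did not overlap, and MDM4 was the 1 gene of the 6 at an unadjusted p under 0.05, against 6.70% of all probe sets (difference 0.395 ± 0.13, limma adjusted p = 0.693). It no longer was without the trend or without either H2BK120R array, where the difference was 0.41 and 0.38. MDM2 differed by 0.245 ± 0.20 and turned to -0.105 without vector replicate 1, and DNMT1 differed by -0.145 ± 0.22, or -0.045 without H2BK120R replicate 2. Of 5 listed N-CoR genes, which bear on USP44, 4 were measured, 2 higher and 2 lower, with a median of 0.00. HDAC3, TBL1XR1 and TBL1X differed by -0.23 ± 0.20, 0.295 ± 0.27 and -0.07 ± 0.15, and the signs of TBL1XR1 and TBL1X turned without vector replicate 1, to -0.205 and 0.06, where HDAC3 was at -0.01.

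The enzymes that add ubiquitin to H2B were set beside those that remove it. All 5 listed writers were measured, 2 of them higher, and their median difference was -0.005, beside -0.02 for the 9 measured genes of the set. The E2 enzyme UBE2A differed by -0.245 ± 0.13, the E3 subunit RNF40 by -0.285 ± 0.15 and the adaptor WAC by 0.115 ± 0.10. Among the 5 writers the groups did not overlap for 2 that were higher (RNF20 and WAC) and 2 that were lower (UBE2A and RNF40). Of all probe sets, 18.6% did not overlap and were higher, and 17.9% did not overlap and were lower. With 1 array left out UBE2A ranged from -0.34 to -0.15 (vector replicates 2 and 1) and RNF40 from -0.425 to -0.145 (H2BK120R replicates 1 and 2). Of 10 listed other histone deubiquitylases 6 were measured, 4 higher and 2 lower, with a median of 0.205. USP36, USP11, USP15 and BAP1 were not measured. The 3 with the smallest p were MYSM1, which acts on H2A (0.32 ± 0.19), and USP12 and USP46, close paralogs that act on both H2A and H2B (0.29 ± 0.18 and 0.32 ± 0.20). For USP12 and USP46, 2 of the 6 measured genes, both H2BK120R arrays lay above both vector arrays, against 18.6% of all probe sets. None of MYSM1, USP12 and USP46 was at an unadjusted p under 0.05 in limma. MYSM1 was at 0.065 without vector replicate 1, USP12 at 0.145 without vector replicate 2 and USP46 at 0.19 without H2BK120R replicate 1.

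**Figure D5:**
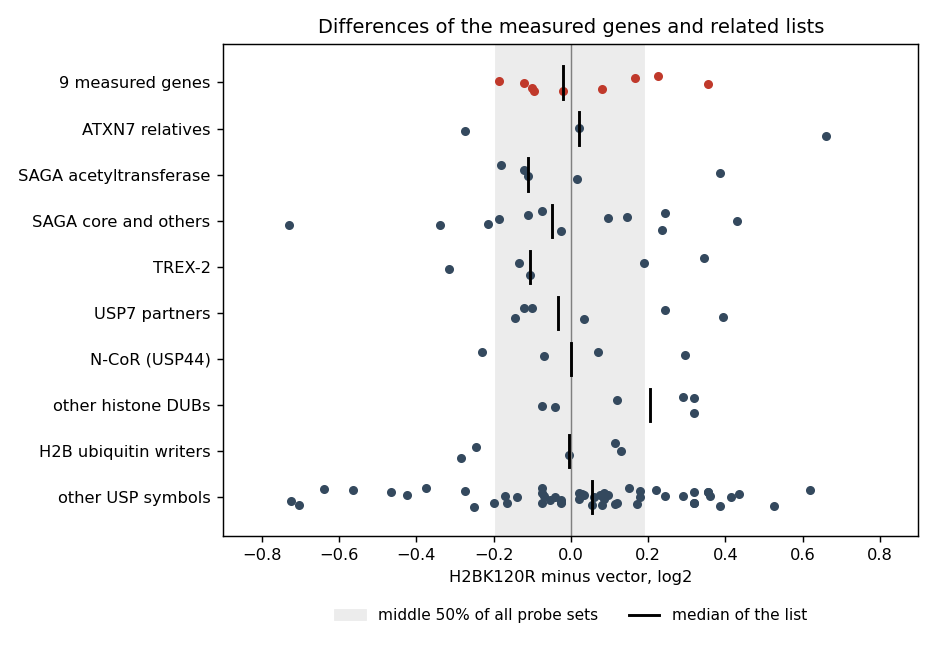
Difference in log2 level, H2BK120R minus vector, of every measured gene in the set and in each related list, with the median of each list as a black bar and the middle 50% of all probe sets, -0.195 to 0.19, in grey. The grey band is the spread of single probe sets and is no yardstick for a median. The medians of the 9 measured genes, the writers and the other histone deubiquitylases (DUBs) lie at -0.02, -0.005 and 0.205.

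The genes whose profiles over the 4 arrays came closest to that of USP22 were FAF2, CD99 and FAAP24. Their root mean square distances to USP22, after each gene's own mean was subtracted, were 0.0043, 0.0071 and 0.0071 log2 units, among 9297 genes at or above the median level. USP22 was nearly flat, and 19.5% of those genes lay within 0.1 of it, so this likeness is common on these arrays. Like USP22, all 3 changed sign without H2BK120R replicate 2, which follows from their choice by profile and is no further likeness.

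Several facts of the whole series bear on these values. Array medians ran from 6.40 to 6.43, and correlations between arrays from 0.990 to 0.994, lowest on average for vector replicate 1 (0.991). LDOC1, the target of the hairpin in both groups, was at 8.37 and 8.66 in the H2BK120R arrays and at 8.0 and 8.33 in the vector arrays, a difference of 0.35 ± 0.23 (limma SE), which does not measure the depletion. Among epithelial markers, KRT8, KRT18, CDH1 and KRT19 lay above the median level and EPCAM was below it, at 5.45 in the H2BK120R cells and 5.71 in the vector cells. CDH1, the epithelial cadherin, was at 11.24 and 11.20 in the H2BK120R arrays and at 10.55 and 10.69 in the vector arrays, a difference of 0.60 ± 0.15 (limma adjusted p = 0.650) that stayed between 0.53 and 0.67 with any 1 array left out. KRT19 went the other way, at 6.59 and 6.31 in the H2BK120R arrays and at 6.75 and 7.10 in the vector arrays. Its difference was -0.475 ± 0.28 (limma SE), and between -0.65 and -0.30 with 1 array left out. EPCAM was also lower (-0.26), KRT18 was higher (0.195) and KRT8 differed by 0.035, so the 5 markers shared no direction. The part of these markers in the values of the 9 genes was not tested. All 5 metabolic genes that are typically high in A549 were above the median level, at mean levels from 13.62 to 17.72. The 3 leukocyte and 3 endothelial markers measured lay below it, as did 3 of 4 fibroblast markers. The mean level over the leukocyte list was 5.25 and 5.04 in the H2BK120R arrays and 5.30 and 4.76 in the vector arrays.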

How the data were processed

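RNA from 2 H2BK120R and 2 vector samples was hybridised to a whole-transcript array. Per the labels' protocols, cDNA made from amplified RNA was fragmented and carried a biotin label. The deposited values are log2 levels, 1 per probe set and array, which the authors had normalized between arrays. Both are inferred from the values, the base from their range of 1.56 to 19.15 and the normalization from array medians that nearly coincide. A wrong base would rescale every difference. The submitters' processing notes name MAS5, with no version, and no source used here states the background correction, the probe summary or detection calls.

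Of 21448 probe sets, 17709 had 1 gene symbol and 3739 none in GEO's platform annotation, and 0 symbols needed an update against RefSeq for GRCh38.p14. The brightest probe set stood for a gene, and each measured member had 1. Coordinates are left out because the values come with no build.

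The comparison was fitted in R 4.3.3 with limma 3.58.1, using lmFit and a trended eBayes, two-sided and without covariates, and p-values were adjusted by Benjamini-Hochberg across the whole table. There were 2 residual and a median of 8.95 prior degrees of freedom. The fit was also run on data simulated from its own variances without replicate effects, which checks the code and not its assumptions. All errors of differences are limma standard errors. Precision is limited by the number of arrays. Figures were drawn with matplotlib 3.10.9 in Python 3.11.15.

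The members and gene lists were chosen with earlier results of these data known. Named were all members, LDOC1, from each list up to 3 genes with the smallest p, and the 3 genes closest to USP22. Other settings tried were equal array medians or quantile normalization, a filter that removed the dimmest 25% or 50%, a test of probe sets with 1 symbol alone, robust or untrended eBayes, the mean of a gene's probe sets, a replicate block, and the removal of each array. The pseudocount planned for linear values does not apply.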

Additional observations from a re-analysis of the deposited data

How the results depend on the processing

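Under each of the 13 other settings, arrays left out included, 0 of the measured members reached an adjusted p of 0.05 (limma) and 0 were at an unadjusted p under 0.05. Over all probe sets 0 passed the adjusted threshold. Unadjusted p-values under 0.05 numbered 1437 in the reported fit and 903 after the dimmest 50% were removed, which leaves fewer to test. Removing 1 array gave 495 at the lowest, for H2BK120R replicate 2, then 744 for H2BK120R replicate 1, and 2427 at the highest, for vector replicate 2. With the replicate block it was 1846, and calls at the adjusted threshold did not change. ATXN7L1, UBE2A and KRT18 were under an unadjusted p of 0.05 with the block (limma) and above it in the reported fit. After quantile normalization ATXN7L1 and UBE2A were also under it. The labels do not say that a number marks a shared culture or day, and deviations of same-numbered arrays correlated at 0.141 over 2 pairs, which does not settle a pairing. The number of members higher with H2BK120R was 4 in every setting but the removal of the dimmest 50%, which took out USP44, USP49 and USP51 and left 3. Non-overlapping members numbered 3 as reported, 4 after quantile normalization and 5 with equal array medians, both chosen after seeing the data. All probe sets gave 36.5%, 37.2% and 36.6%. Of the 9 members, 4 changed sign with 1 array left out. USP22 then ranged from -0.06 to 0.02, USP7 from -0.03 to 0.19, USP44 from -0.31 to 1.02 and USP51 from -0.745 to 0.555. Among other named genes the ranges that crossed 0 were -0.64 to 0.09 for ATXN7L2, -0.02 to 0.06 for ATXN7L3B, -0.445 to 0.085 for TADA3, -0.305 to 0.065 for TADA2B, -0.105 to 0.595 for MDM2, -0.205 to 0.795 for TBL1XR1, -0.20 to 0.06 for TBL1X, -0.03 to 0.57 for CD3E, -0.45 to 0.29 for PTPRC, -0.145 to 0.235 for VWF, -0.05 to 0.02 for FAF2 and -0.065 to 0.005 for both CD99 and FAAP24. ATXN7L3B was also at -0.011 after quantile normalization. A group left with 1 array borrowed its spread from the other group, and beyond the smaller numbers of probe sets or arrays the cause was not tested.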

Other observations

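The wider family of USP symbols was measured with 53 genes outside the set. Of these, 14 were near-identical USP17L copies and 1, USP6NL, encodes a GTPase-activating protein and no deubiquitylase. USP12, USP16, USP21 and USP46 were also counted above among the other histone deubiquitylases, so the 2 lists share genes. Of the 53, 31 were higher with H2BK120R and 22 lower, with a median difference of 0.055, and 0 passed an adjusted p of 0.05 in limma. At an unadjusted p under 0.05 there were 4, or 7.55%, against 6.70% of all probe sets. All 4 were higher with H2BK120R, where 3.62% of all probe sets were. USP37, which acts on cyclin A and in DNA replication, was at 9.95 and 9.92 in the H2BK120R arrays and at 9.34 and 9.48 in the vector arrays, a difference of 0.525 ± 0.18. USP9X, a large X-linked enzyme that stabilises MCL1, was at 13.22 and 13.17 in the H2BK120R arrays and at 12.78 and 12.90 in the vector arrays. Its difference was 0.355 ± 0.12, and its unadjusted p was above 0.05 without the mean-variance trend. USP24 was at 8.66 and 8.93 in the H2BK120R arrays and at 8.04 and 8.31 in the vector arrays, a difference of 0.62 ± 0.22. USP8, an endosomal enzyme named after its values were seen, differed by 0.32 ± 0.14. The limma adjusted p-values of USP37, USP9X and USP24 were between 0.705 and 0.722.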
